A study of Mus musculus with 5 samples.

Results

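The cells described here were the 300 highest-scoring cells of 7-day mouse salivary gland organoids (mSGOs), out of 3221 eligible cells in 3 libraries and 72788 cell barcodes in the 5 libraries of the series. They were chosen by measured values. A barcode was eligible when mitochondrially encoded genes took at most 5% of its unique molecular identifiers (UMIs), when at least 1% came from Malat1, a long nuclear RNA, and when it held at least 2000 UMIs. Eligible cells were ranked by the summed share of UMIs from Sostdc1, Prkg2, Aqp5, Prss12, Mgp, Layn and Gas1, and the 300 with the highest share are called high-scoring cells below. The other 2921 eligible cells are called the remaining cells.

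mSGOs grow in Matrigel, a gel of basement membrane proteins, out of dissociated submandibular salivary glands, which in this study came from C57BL/6 mice 8 to 12 weeks old (females, per the study's methods). The control library held non-irradiated mSGOs, and the photon and proton libraries held mSGOs that received 7 Gy of photons or 7 Gy of protons on day 5. All 3 were cultured in WRY medium (with EGF, FGF2, R-spondin1 and Wnt3a), came from 4 animals and were collected on day 7 in 1 experiment. The other 2 libraries were non-irradiated 11-day mSGOs, made from another batch of animals in a separate run, and freshly isolated gland tissue. Each group was 1 library, pooled over animals, so no difference was tested. Intervals are 95% intervals for counting error and do not cover animals, cultures or library preparation.

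Salivary glands secrete fluid from acinar cells, which is carried through intercalated and larger ducts, and basal cells line the outer side of the ducts. Aquaporin 5, the product of Aqp5, is the apical water channel of acinar and intercalated duct cells. Sostdc1 encodes a secreted antagonist of BMP and Wnt signals, Mgp a matrix protein that inhibits calcification and binds BMPs, and Gas1 a membrane-anchored co-receptor for hedgehog ligands. Prkg2 encodes a cGMP-dependent protein kinase, Layn a hyaluronan receptor and Prss12 a secreted serine protease. In the GENCODE vM39 annotation (GRCm39), Sostdc1 (ENSMUSG00000036169) is at chr12:36364137-36368451 on the plus strand, Mgp (ENSMUSG00000030218) at chr6:136849433-136852821 on the minus strand and Aqp5 (ENSMUSG00000044217) at chr15:99488532-99492710 on the plus strand. Prkg2 is at chr5:99076863-99185470 on the minus strand, Prss12 at chr3:123240470-123300398 on the plus strand, Layn at chr9:50965940-50988452 and Gas1 at chr13:60322219-60325179, both on the minus strand. These are whole-gene spans, and the build used for counting may differ.

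High-scoring cells were mainly Sostdc1, Mgp and Prkg2 cells, and Aqp5 was a minor part of the score. Sostdc1 gave 47.2% of all score UMIs in the 300 cells, Mgp 20.1%, Prkg2 19.7%, Aqp5 4.83%, Gas1 3.73%, Prss12 2.41% and Layn 2.09%. Sostdc1 was the highest of the 7 genes in 160 cells, Prkg2 in 67, Mgp in 54 and Aqp5 in 12, of which 10 were control cells. Aqp5 had at least 1 UMI in 60 of the 300, and Sostdc1 in 233. The name of Aqp5 and Sostdc1 cells therefore held for Sostdc1 in most of the cells and for Aqp5 in few of them. No cell held all 7 genes. A total of 22 cells had UMIs from 1 of the genes, 98 from 2, 86 from 3, 71 from 4, 19 from 5 and 4 from 6.

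Because these 7 genes chose the cells, their levels are a description. Sostdc1 was at 964 CPM (898 to 1033; CPM, UMIs of a gene per 1000000 UMIs of the same cells) in control high-scoring cells, 627 (578 to 680) in photon cells and 757 (692 to 826) in proton cells. In the remaining cells it was at 40.3, 34.6 and 27.1 CPM, well below in each library. Mgp was at 397, 268 and 334 CPM in high-scoring cells of the control, photon and proton libraries, and at 33.8, 27.4 and 23.6 CPM in the remaining cells. Prkg2 was at 190 CPM (161 to 222) in the control, 376 (337 to 417) in the photon and 415 (368 to 467) in the proton library, so that the control was the lowest. Aqp5 went the other way, with 182 CPM (154 to 214) in control high-scoring cells, 27.5 (18 to 40.3) in photon cells and 25.4 (14.8 to 40.6) in proton cells. A single control cell held 27 of the 151 Aqp5 UMIs, and without it the control was at 150 CPM. Prss12, Layn and Gas1 were low, between 15.7 and 68.7 CPM in high-scoring cells and between 2.56 and 15.4 CPM in the remaining cells.

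**Figure D1:**
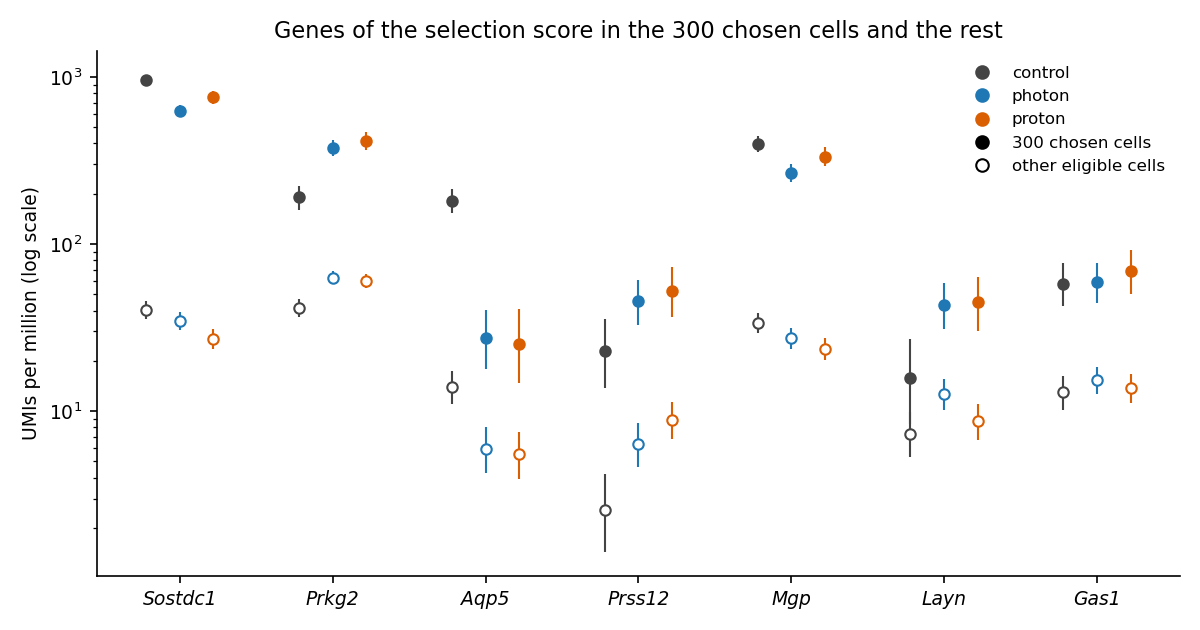
Level of the 7 score genes (CPM, log axis) in the 300 high-scoring cells (filled) and the other eligible cells (open) of the control, photon and proton libraries, with 95% Poisson counting intervals. Aqp5 is at 182 CPM in control high-scoring cells and at 27.5 and 25.4 CPM in the irradiated ones, whereas Prkg2 is lowest in the control.

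The border of the group was gradual. The last cell inside had a score of 840.9 CPM and the first outside 840.7 CPM, 86 eligible cells lay within 10% of the border, and 1514 eligible cells had no UMI of any score gene. High-scoring cells held between 2 and 59 score UMIs, with a median of 10, and 30 of them held 3 or fewer. Scores based on so few UMIs are imprecise, and when each cell was thinned to 2000 UMIs before scoring, 210 of the 300 were chosen again. The group is a range of scores cut at a fixed number of cells.

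The proton library had the lowest share of high-scoring cells and the control the highest. They were 104 of 875 eligible control cells (11.9%, 9.82 to 14.2, Clopper-Pearson), 111 of 1200 photon cells (9.25%, 7.67 to 11) and 85 of 1146 proton cells (7.42%, 5.97 to 9.09). The intervals of control and proton did not overlap, and that of photon overlapped both. The same order was found in all 7 other ways of choosing the cells, among them thinning (11, 9.75 and 7.59%) and a score without Aqp5 (11.3, 9.75 and 7.33%). Eligible cells were themselves a small part of the deposited barcodes, 875 of 7151 in the control, 1200 of 19189 in the photon and 1146 of 18635 in the proton library, and the threshold on Malat1 removed most of the rest. Whether the differing losses set the shares was not tested.

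**Figure D2:**
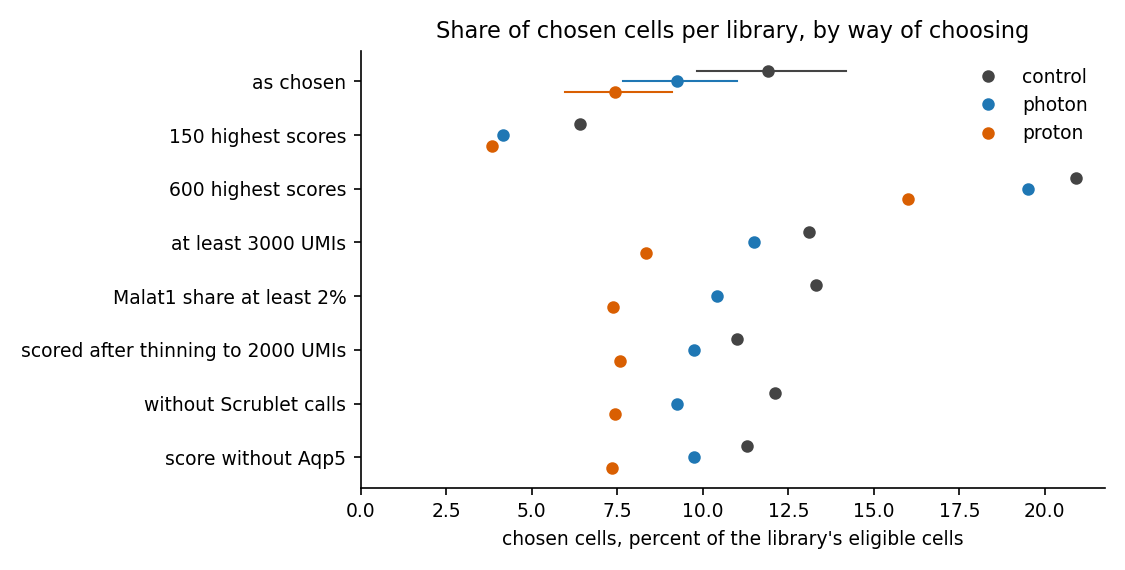
Share of eligible cells of each library that were chosen (percent), for the 300 highest scores with 95% Clopper-Pearson intervals (top) and for 7 other ways of choosing. The control is highest and the proton library lowest in each of the 8 ways.

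High-scoring cells were more deeply sequenced than the remaining cells of the same library. Their median was 7386, 7845 and 7123 UMIs per cell in the control, photon and proton libraries, against 6648, 5747 and 6152 UMIs, and 2230, 2399 and 2284 genes against 1739, 1627 and 1724. They held 827865, 945332 and 670015 UMIs in all. The doublet caller Scrublet marked 2 of the 300. No barcode was shared by high-scoring cells of 2 day 7 libraries. A minimum of 2500 genes per cell, which the study's methods name, would have kept 120 of the 300 and 641 of all eligible cells.

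To compare the share of cells with a UMI at equal depth, each cell was thinned to 2000 UMIs. Sostdc1 was then found in 66.3, 56.8 and 52.9% of high-scoring cells in the control, photon and proton libraries, in 5.84, 5.42 and 6.13% of the remaining cells, and in 2.42, 1.01 and 2.6% of those 300 remaining cells that had the highest share of squamous and cornifying transcripts. Barcodes with less than 1% Malat1, which were not eligible, had it in 10.9, 10.3 and 8.71%. Mgp was found in 32.7, 32.4 and 28.2% of high-scoring cells, in 5.71, 5.42 and 4.05% of the remaining cells and in 22.9, 13.9 and 14.4% of the barcodes poor in Malat1. Taking out the high-scoring cells lowers the share in the remaining cells. Over all eligible cells the shares were 13, 10.3 and 9.6% for Sostdc1 and 8.91, 7.25 and 5.76% for Mgp. Aqp5 was found in 18.3, 5.41 and 3.53% of high-scoring cells, in 2.33, 1.29 and 1.13% of the remaining cells and in 6.81, 2.04 and 2.86% of Malat1-poor barcodes. The shares in high-scoring cells are raised by the choice itself, and no comparison is drawn from them.

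To describe how far each score gene followed the others, each was left out in turn, the 300 highest scores were taken from the other 6, and the left-out gene was compared with the other eligible cells. This is not independent of the choice, since the 7 genes were picked together on these libraries and 200 to 292 of the 300 cells were the same. The log2 ratio was 2.33 ± 0.12 for Prss12 (mean ± SD of 3 libraries), 2.29 ± 0.44 for Sostdc1, 2.15 ± 0.31 for Mgp, 1.61 ± 0.19 for Prkg2, 1.45 ± 0.19 for Gas1 and 1.31 ± 0.60 for Layn. Each of these was above 0 in all 3 libraries, and the counting interval reached below 0 only for Layn in the control (0.81, −0.17 to 1.84). Aqp5 had the smallest value, 0.87 ± 0.49. It was 1.16 (0.72 to 1.64) in the control, 1.14 (0.36 to 2.06) in the photon and 0.30 (−1.18 to 1.56) in the proton library, where only 6 Aqp5 UMIs fell in the chosen cells. Sostdc1 left out gave 472, 327 and 387 CPM in the chosen cells against 120, 74.9 and 55.2 CPM in the rest.

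Both Aqp5 and Sostdc1 ranked the cells, so their overlap is a description. Of 34 control high-scoring cells with Aqp5, 25 also had Sostdc1, as did 15 of 18 photon and 6 of 8 proton cells, while 85 of all 104 control, 86 of 111 photon and 62 of 85 proton high-scoring cells had Sostdc1. Over all eligible cells, 46 of 875 control cells had both genes, where the product of their shares gives 25.2. It was 21 against 10.7 in the photon and 9 against 7.26 in the proton library. After thinning to 2000 UMIs the counts were 9 against 4.82, 2 against 2.03 and 2 against 1.44, too few to separate. Cells with 3 or more Aqp5 UMIs numbered 20 in the control, 3 in the photon and 3 in the proton library.

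Control high-scoring cells with and without Aqp5 had similar levels of the acinar and pro-acinar list other than Aqp5. The list summed to 169 CPM (128 to 219) in the 34 cells with Aqp5 and to 183 CPM (148 to 225) in the 70 without. Among its 21 other genes, 5 reached 100 UMIs in the eligible cells and 5 were at 0, among them Bpifa2, Smr3a, Pip and Lpo, which encode products of acinar secretion. Bhlha15, a transcription factor of secretory cells, had 1 UMI in all eligible cells. Of the 5 acinar genes with enough UMIs, Kcnn4, a calcium-activated potassium channel, was higher in high-scoring cells (log2 ratio 0.94 ± 0.31) and Ano1, the apical chloride channel, was at 0.57 ± 0.13. Alcam was at 0.30 ± 0.06 and Clcn3 at −0.24 ± 0.22. The median of the 5 genes was 0.35, 0.33 and 0.47 in the control, photon and proton libraries, near that of all genes below.

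High-scoring cells were compared with the remaining cells of the same library over 8389 genes, without the 7 score genes, Malat1 and mitochondrial genes. The median log2 ratio of all genes was 0.27 in the control, 0.20 in the photon and 0.25 in the proton library. A total of 136 genes (1.62% of the genes compared) were at least 2-fold higher in all 3 libraries and 164 (1.95%) at least 2-fold lower. Measured relative to the median of all genes these were 45 and 244 genes, so that higher genes were 45.3% of those past the fold before and 15.6% after that shift. Genes higher by any amount in all 3 libraries were 46.7% of those compared, and genes lower in all 3 were 16.5%.

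Far below the remaining cells were genes of squamous differentiation, the program by which stratified epithelia flatten and form a cornified layer. Of 19 squamous and cornifying genes with enough UMIs, 14 were at least 2-fold lower in all 3 libraries (1.95% of all genes were). None was 2-fold higher in all 3, but Sprr2a3 was somewhat higher in each (0.61, 0.18 and 0.14). The median log2 ratio of the list was −2.17 in the control, −1.88 in the photon and −2.09 in the proton library. Sprr1a, a cross-linked precursor of the cornified envelope, was at 90.6 CPM against 857 in the control, 50.8 against 1359 in the photon and 67.2 against 1081 in the proton library. Krt13, a keratin of stratified mucosa, was at 175, 113 and 107 CPM in high-scoring cells and at 833, 673 and 549 CPM in the remaining cells. Krt6b was lower by a log2 ratio of −2.78 ± 0.17 and Cnfn, which encodes cornifelin, by −2.99 ± 0.56. Sprr2d and Sprr2f (−3.24 ± 0.58 and −2.69 ± 0.14) belong to a family of near-identical genes, between which UMIs may be divided wrongly. Over single cells, the summed share of the list had a 90th percentile of 4120, 4015 and 2664 CPM in high-scoring cells and of 16610, 10020 and 8476 CPM in the remaining cells.

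Other genes were also well below. Zfp750 (−3.12 ± 0.47), Grhl3 (−3.34 ± 0.66) and Elf3 (−2.31 ± 0.27) encode transcription factors of epithelial differentiation, and Grhl3 was at 1.21, 1.06 and 0 CPM in high-scoring cells against 19.7, 12.8 and 15.6 CPM. Spink5, a protease inhibitor of the skin barrier, was at 16.9, 12.7 and 17.9 CPM against 114, 178 and 131 CPM. Gjb2, a gap junction protein, was at 8.46, 9.52 and 8.96 CPM against 92.1, 98.2 and 64 CPM. Mxd1, which encodes a partner of MAX that opposes MYC, was at −2.74 ± 0.17 on the log2 scale. Lmo7 was at −2.84 ± 0.31, Lypd3 at −2.47 ± 0.13, Mal2 at −2.61 ± 0.25, Sptssb, a subunit of the first enzyme of sphingolipid synthesis, at −2.60 ± 0.25 and 2610528A11Rik at −2.59 ± 0.34.

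Among genes with at least 50 CPM, the 15 farthest above the remaining cells were of several kinds. Timp3, an inhibitor of metalloproteinases bound to the matrix, was at 97.8, 97.3 and 97 CPM in control, photon and proton high-scoring cells and at 24.8, 25 and 20 CPM in the remaining cells. Sparc, a matrix-associated glycoprotein, was at 227, 228 and 216 CPM against 64.8, 70.2 and 77.8 CPM. Tnc, which encodes tenascin C, was at 33.8, 66.6 and 76.1 CPM against 12.3, 13.5 and 16.7 CPM. Kitl, the ligand of the receptor Kit, was at 238, 189 and 204 CPM against 64.4, 71.1 and 73.8 CPM. The products of all 4 genes act outside the cell or at its surface. Atic (1.69 ± 0.15), an enzyme of purine synthesis, and Dtymk (1.48 ± 0.09), an enzyme of thymidine nucleotide synthesis, were higher, as was Mcm4 (1.70 ± 0.22), a subunit of the replicative helicase. Fermt1, which activates integrins, was at 1.67 ± 0.24 and Enpp1, a pyrophosphatase of the cell surface, at 1.65 ± 0.37. The rest of these 15 were Oaf (2.00 ± 0.57), Kifap3 (1.64 ± 0.08), Htra2 (1.57 ± 0.11), Ptprz1 (1.62 ± 0.33), Ctnnal1 (1.43 ± 0.19) and Slco2a1, a prostaglandin transporter (1.37 ± 0.10).

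**Figure D3:**
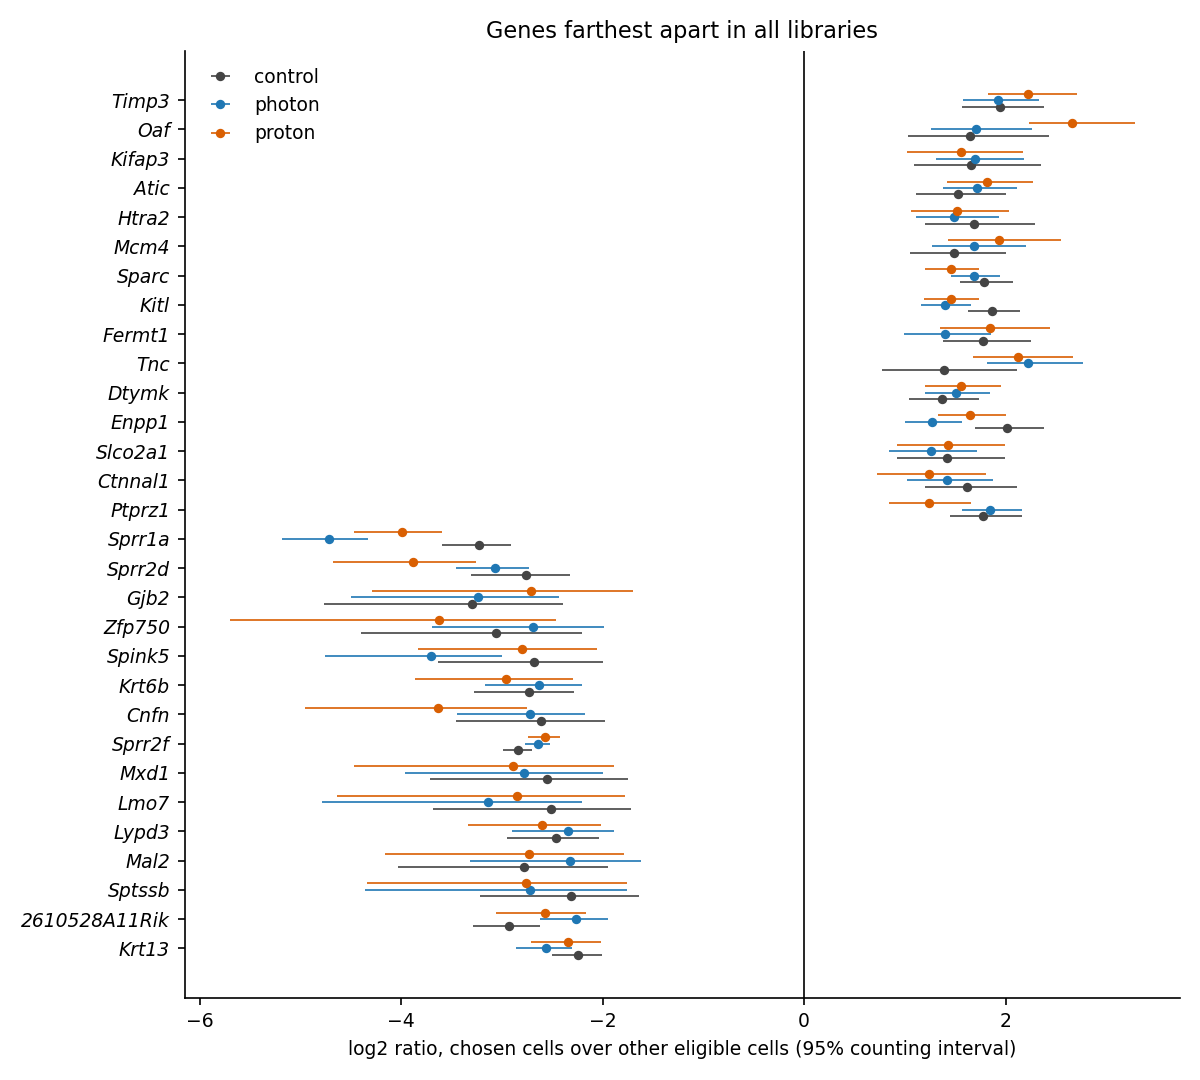
Log2 ratio of high-scoring over remaining cells for the 15 genes farthest above and the 15 farthest below in all 3 libraries among genes with at least 50 CPM, with 95% counting intervals, by library. Timp3 lies near 2 and Sprr1a between −4.72 and −3.23.

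Adhesion genes of the basal layer were moderately higher. The median of the 13 basal duct genes was 0.90, 0.63 and 0.42 in the control, photon and proton libraries, 11 of the 13 were higher in all 3 (46.7% of all genes were), and none reached 2-fold in all 3. The keratins of the list were near or below the median of all genes in most libraries, with Krt14 at −0.11, −0.16 and −0.13, Krt5 at 0.42, 0.29 and 0.13 and Krt17 at 0.39, 0.12 and −0.00. Itgb4, a subunit of the integrin of hemidesmosomes, was at 180, 207 and 212 CPM against 90.4, 107 and 99.8 CPM, and its partner Itga6 at 373, 410 and 378 CPM against 197, 233 and 226 CPM. Itga3 (0.98 ± 0.32) and the laminin subunit Lamb3 (0.91 ± 0.29) were also higher. Itgb1, the integrin that is CD29, was at 749, 1056 and 815 CPM against 321, 376 and 339 CPM, the only gene of the stem/progenitor II list past 2-fold. Cd44, a hyaluronan receptor in the same list, was at 0.35 ± 0.04. Trp63, the transcription factor of basal epithelium, was at 0.90 in the control, 0.09 in the photon and 0.23 in the proton library, so that in the irradiated libraries it did not exceed the median of all genes given above.

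The myoepithelial list had 5 of 13 genes with enough UMIs, at a median of 0.80, 0.44 and 0.73. All 5 were higher in all 3 libraries (46.7% of all genes were). Beside Sparc, these included Cald1 (0.99 ± 0.16), Csrp1 (0.64 ± 0.24) and Lgals7 (0.48 ± 0.06). The contractile genes of the list were nearly absent from high-scoring cells. Acta2, Myh11, Mylk, Oxtr, Actg2 and Myl9 had 0 UMIs there, and Cnn1 and Tagln had 1 UMI each, in the control. The stem/progenitor I list was lower, at −0.70, −0.49 and −0.65, with Cd24a at −0.74 ± 0.10 and Cd164 at −0.69 ± 0.16. Luminal duct genes did not move together. Wfdc2, a secreted protein with protease inhibitor domains, was at 2512, 2216 and 2131 CPM against 1366, 1108 and 1039 CPM, while the tight junction gene Cldn4 (−1.62 ± 0.31) and the keratin Krt19 (−1.52 ± 0.49) were lower. The median of the list was −0.09, −0.05 and −0.28, whereas its summed UMIs, most of them from a few abundant genes, were higher by 0.18, 0.21 and 0.14. The secretory duct list, which also holds Wfdc2, had medians of −0.31, −1.47 and −0.25 and sums higher by 0.37, 0.34 and 0.37.

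Genes of DNA replication were higher in high-scoring cells. All 15 S phase genes with enough UMIs were higher in all 3 libraries (46.7% of all genes were), with medians of 1.48, 1.25 and 1.21. Of these, 6 were at least 2-fold higher in all 3 (1.62% of all genes). Mcm6, another helicase subunit, was at 39.9, 38.1 and 26.9 CPM against 6.5, 7.05 and 4.56 CPM, Hells at 58, 41.3 and 29.9 CPM against 19.3, 12.4 and 8.43 CPM, and Fen1, the flap endonuclease, at 1.59 ± 0.31 on the log2 scale. G2/M genes had a median of 0.81, 1.26 and 0.34. Of 20 genes, 11 were higher in all 3, a share near the 46.7% of all genes, and none was past 2-fold in all 3. In the proton library their summed UMIs were slightly lower (−0.11). Birc5, a subunit of the chromosomal passenger complex, was at 73.7, 55 and 44.8 CPM against 38.8, 13.7 and 18.1 CPM.

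**Figure D4:**
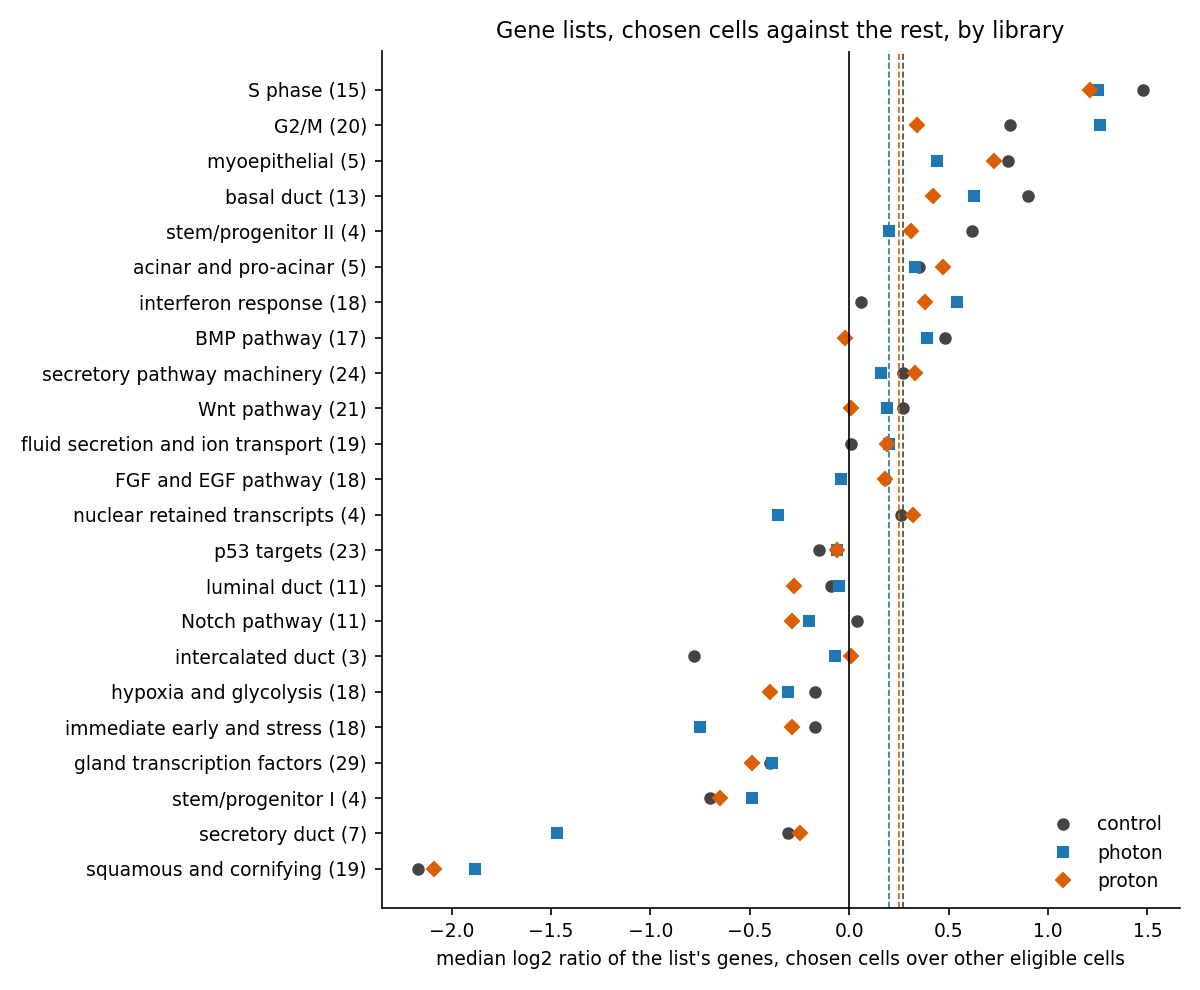
Median log2 ratio of the genes of each list, high-scoring over remaining cells, by library, with the number of genes in brackets. Dashed lines give the median of all 8389 genes (0.27, 0.20 and 0.25). The squamous list is at −2.17, −1.88 and −2.09, and S phase at 1.48, 1.25 and 1.21.

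Signalling genes related to the score genes were mixed. The BMP list had medians of 0.48, 0.39 and −0.02, and 5 of 17 genes were higher in all 3 libraries and none lower, a smaller share higher than the 46.7% of all genes. Id3, a target of BMP signals, was at 0.61 ± 0.05, Id4 at 1.19 ± 0.37 and the receptor Acvr1 at 0.78 ± 0.31. In the Wnt list (0.27, 0.19 and 0.01), 8 of 21 genes were higher in all 3, a smaller share than the 46.7% of all genes, and 3 were at least 2-fold higher (1.62% of all genes). The 3 were Sfrp1, a secreted Wnt inhibitor, at 15.7, 25.4 and 14.9 CPM against 4.1, 4.65 and 2.76 CPM, Lgr6, an R-spondin receptor, at 32.6, 21.2 and 28.4 CPM against 6.5, 9.73 and 8.15 CPM, and Tcf7, a transcription factor of the pathway (1.60 ± 0.35). The ligand Wnt10a was at 1.15 ± 0.25. In the hedgehog list 2 of 13 genes had enough UMIs, Ptch1 at −1.22 ± 0.89 and Smo at 0.28 ± 0.42. In the cGMP list 2 of 18 did, Vasp at 0.41 ± 0.14 and Pde5a at 0.50 ± 0.32. Notch genes had medians of 0.04, −0.20 and −0.29, and Nrarp, a feedback inhibitor and target of the pathway, was at 21.7, 24.3 and 16.4 CPM against 62.2, 70.7 and 80.2 CPM. The FGF and EGF list was at 0.18, −0.04 and 0.18, with Etv4 at 1.09 ± 0.50, Spry2 at 0.86 ± 0.26, Erbb3 at −1.11 ± 0.17 and Phlda1 at −1.09 ± 0.17. Of 29 gland transcription factors, 15 were lower in all 3 libraries (16.5% of all genes were) and 6 at least 2-fold lower (1.95% of all genes), while Hmga2, a chromatin protein of growing cells, was at 310, 531 and 481 CPM against 125, 225 and 173 CPM.

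Hypoxia and stress genes were mostly lower. In the hypoxia and glycolysis list (−0.17, −0.31 and −0.40) 11 of 18 genes were lower in all 3 libraries (16.5% of all genes were), and 4 were at least 2-fold lower (1.95% of all genes), with the peptide hormone gene Adm at −2.28 ± 0.15, Ankrd37 at −2.25 ± 0.79, Ndrg1 at −1.54 ± 0.36 and Pfkfb3 at −1.30 ± 0.54. The immediate early and stress list was at −0.17, −0.75 and −0.29. It held Hspb1, a small heat shock protein, at 5829, 5724 and 6609 CPM against 12687, 12613 and 13622 CPM, as well as Hspa1b (−1.51 ± 0.04), Atf3 (−1.28 ± 0.59) and Nr4a1 (1.19 ± 0.40). Among p53 targets, Cdkn1a, an inhibitor of the cell cycle, was at 223, 236 and 251 CPM against 644, 734 and 851 CPM, and Perp, a desmosome protein, at −1.36 ± 0.05. The list as a whole was at −0.15, −0.06 and −0.06. Secretory pathway genes were at 0.27, 0.16 and 0.33, level with all genes, with Pdia6 at 0.92 ± 0.19 and Sdf2l1 at 1.42 ± 0.40. In this list 14 genes were higher in all 3 libraries and 2 lower, Dnajb9 (−1.18 ± 0.41) and P4hb (−0.55 ± 0.15). The fluid secretion list was at 0.01, 0.20 and 0.19, with Itpr2 at 0.73 ± 0.11 and Stim1 at −0.66 ± 0.30.

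Few markers of cells from outside the epithelium had enough UMIs. In the stromal list 2 of 14 genes, in the endothelial list 1 of 10, in the immune list 1 of 14 and in the nerve and glia list 1 of 7 reached 100 UMIs. The summed stromal list was at 105, 79.3 and 118 CPM in high-scoring cells against 74.9, 54.3 and 70.3 CPM, with 6 genes at 0. The immune list summed to 15.7, 27.5 and 16.4 CPM against 17.8, 34.1 and 27.5 CPM, with 8 genes at 0. The endothelial list was higher in high-scoring cells, at 30.2, 32.8 and 23.9 CPM against 13.8, 16.8 and 14.1 CPM, mostly through Egfl7 (25.4 against 11.3 CPM in the control), with 5 genes at 0, among them Cdh5 and Vwf. The nerve and glia list was at 27.8, 10.6 and 7.46 CPM against 5.47, 4.94 and 3.59 CPM, mostly through the neurotrophin receptor gene Ngfr (26.6 against 4.79 CPM in the control). The part of such cells in the other results was not tested.

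The remaining cells include squamous cells, so high-scoring cells were also compared with cells as low in the squamous list as most of their own number. This comparison was chosen after seeing the data and used the 225 high-scoring and 1346 remaining cells at or below the 75th percentile of the high-scoring cells. It left 46 genes at least 2-fold higher and 48 lower in all 3 libraries, of which 33 and 34 were also called in the full comparison. The median ratio was 0.86 for S phase genes and 0.44 for basal duct genes. The squamous list itself was then at −0.06, by construction of the limit.

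High-scoring cells were not uniform. Cells led by Sostdc1 (62 control, 53 photon and 45 proton cells) and cells led by Mgp (19, 22 and 13) were spread over the libraries, while cells led by Prkg2 were fewer in the control (12, 31 and 24). The squamous list summed to 1839 CPM (1766 to 1914) in Sostdc1-led, 1548 (1443 to 1660) in Prkg2-led and 2266 (2133 to 2405) in Mgp-led cells, all below the 7249 CPM of the remaining cells. The basal duct list was at 12891 CPM (12697 to 13088) in Sostdc1-led, 11082 (10796 to 11374) in Prkg2-led and 12922 (12603 to 13248) in Mgp-led cells, compared with 11443 in the remaining cells. S phase genes summed to 620, 545 and 732 CPM in the same order, against 267 CPM in the remaining cells. These sums pool the 3 libraries, which gave each kind of cell in different proportions, so no order among the kinds is read from them.

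The eligible cells were also clustered without the 7 score genes. Of 9 clusters, the 2 with most high-scoring cells held 145 (48.3%) and 88 (29.3%) of the 300, while they held 14.4 and 15.5% of all eligible cells. High-scoring cells made up 31.3 and 17.6% of these clusters, so most cells in them were not high-scoring. A further 30 of the 300 lay in a cluster of 181 cells whose G2/M genes summed to 3861 CPM, with 14 control, 12 photon and 4 proton cells. The cluster with the highest squamous level, 41623 CPM, held 1 of the 300.

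Comparing irradiated with control high-scoring cells, over 4942 genes with at least 50 UMIs in them, 43 genes (0.87%) were at least 2-fold higher and 10 (0.202%) at least 2-fold lower in both the photon and the proton library. Genes higher in both by any amount were 37.4% and genes lower in both 33.3%. The minimum of 50 UMIs was summed over 1 control and 2 irradiated libraries, so that a gene could pass it through the irradiated cells alone. Without it 753 genes were higher and 775 lower, and nothing is read from the larger number of higher genes. The photon and proton ratios share the same control cells and are not independent. In the remaining cells, 19 of the same genes were 2-fold higher and 8 lower in both, of which 10 and 1 were among those of high-scoring cells.

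All 10 G2/M genes compared were lower in both irradiated libraries, where 33.3% of all genes were. Their median was −0.63 in the photon and −1.77 in the proton library. In the remaining cells all 10 were lower as well, at −0.89 and −0.74. Prc1, a spindle midzone protein, was at 193 CPM (164 to 226) in control, 84.6 (67.1 to 105) in photon and 40.3 (26.6 to 58.6) in proton high-scoring cells. Cdca8, a subunit of the chromosomal passenger complex, was at 104, 46.5 and 32.8 CPM. Hmmr was at 77.3, 46.5 and 10.4 CPM, found in 13, 9 and 3 cells. Mki67, the proliferation antigen, was at 37.4, 25.4 and 22.4 CPM in high-scoring cells and at 34.2, 7.19 and 8.71 CPM in the remaining cells, so that irradiated high-scoring cells lay above the remaining cells of their library, but 1 cell held 6 of the 24 photon UMIs and 1 cell 8 of the 15 proton UMIs. S phase genes were at −0.14 and −0.28, with 7 of 10 lower in both (33.3% of all genes were) and 1 higher. Intervals of most single genes, such as Mcm4 (−0.65 to 0.47 for photons), included 0. For protons those of Hells (−1.79 to −0.18) and Cdt1 (−2.34 to −0.04) did not. The other 3 of the 5 lowest genes were Mbd1 (35, 14.8 and 13.4 CPM), Hdac7 (32.6, 14.8 and 13.4 CPM) and Tmem64 (45.9, 21.2 and 19.4 CPM), on 9 to 38 UMIs per library.

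Of 6 interferon response genes compared, 5 were higher in both irradiated libraries, where 37.4% of all genes were. Cxcl10, counted among the 5, reached the UMI minimum only through a single photon cell. The 6 genes had a median of 1.19 in the photon and 1.10 in the proton library, against 0.64 and 0.72 in the remaining cells. Without Cxcl10 the middle gene of the other 5 was Irf9 for photons (0.78) and Ifi35 for protons (0.77). In the remaining cells the middle gene was then Ifi35, at 0.54 and 0.59. The difference between high-scoring and remaining cells was not tested. Isg15, a ubiquitin-like modifier, was at 8.46 CPM in control, 87.8 in photon and 79.1 in proton high-scoring cells. It was found in 7, 17 and 16 cells, and 1 photon cell held 50 of 83 UMIs and 1 proton cell 28 of 53. Without the highest cell of each library Isg15 was at 7.25, 34.9 and 37.3 CPM. All 120 Cxcl10 UMIs of the photon high-scoring cells came from 1 cell, and the chemokine was at 0 UMIs in the control and 4 in the proton library. Bst2, a membrane protein that tethers virions, was more evenly spread, at 25.4 CPM in 15 control, 79.3 in 37 photon and 70.1 in 26 proton cells. Ifi35 had log2 ratios of 0.73 and 0.77. Ifitm3, which had the most UMIs of the 6, differed little at 1314, 1424 and 1485 CPM (0.12 and 0.18), and Irf9, a transcription factor of the response, was at 0.78 for photons and −0.13 for protons.

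Of 16 p53 targets, 12 were higher in both irradiated libraries in high-scoring cells, where 37.4% of all genes were. The medians were 0.40 and 0.49 in high-scoring and 0.48 and 0.48 in the remaining cells, and their difference was not tested. The medians of all genes were 0.00 and 0.04 in high-scoring and 0.07 and 0.05 in the remaining cells. Ccng1, a cyclin induced by p53, was at 146, 220 and 236 CPM, with log2 ratios of 0.59 and 0.69 against 0.90 and 1.00 in the remaining cells, and Bax, which promotes apoptosis, at 132, 198 and 227 CPM. Cdkn1a differed little, at 0.08 (−0.21 to 0.37) and 0.17 (−0.14 to 0.48).

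Other genes stood out singly. Fst, a secreted inhibitor of activins and BMPs, was at 7.25 CPM in control high-scoring cells (6 UMIs in 5 cells), 51.8 in photon cells (49 UMIs in 28 cells) and 49.3 in proton cells (33 UMIs in 16 cells), while it was at 60, 24.8 and 49.1 CPM in the remaining cells. There, 1 control cell held 103 of 351 UMIs and 1 proton cell 126 of 355, and the share of cells with Fst was 9.99, 9.09 and 11.1%. Sox9, a transcription factor of gland progenitors, was at 79.7, 193 and 227 CPM, with a log2 ratio of 1.26 (0.86 to 1.70) for photons and 1.50 (1.08 to 1.95) for protons, and of 0.78 and 0.73 in the remaining cells. Hes1, a target of Notch signals, was at 50.7, 161 and 172 CPM in high-scoring and at 56.2, 102 and 104 CPM in the remaining cells. Sox9 and Hes1 were chosen from their lists after their values were seen. Notch1 was at 0.15 and 0.28 in high-scoring and 0.63 and 0.82 in the remaining cells, and the Notch list as a whole was at 0.12 and −0.00. Olfr77 was at 2.42, 26.4 and 40.3 CPM and Cox6b2, a subunit of cytochrome c oxidase, at 3.62, 37 and 28.4 CPM, on 2 and 3 control UMIs. In the remaining cells Olfr77 was at 11.3, 22.4 and 48.2 CPM and Cox6b2 at 5.3, 14.5 and 12.3 CPM, also higher in both irradiated libraries.

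**Figure D5:**
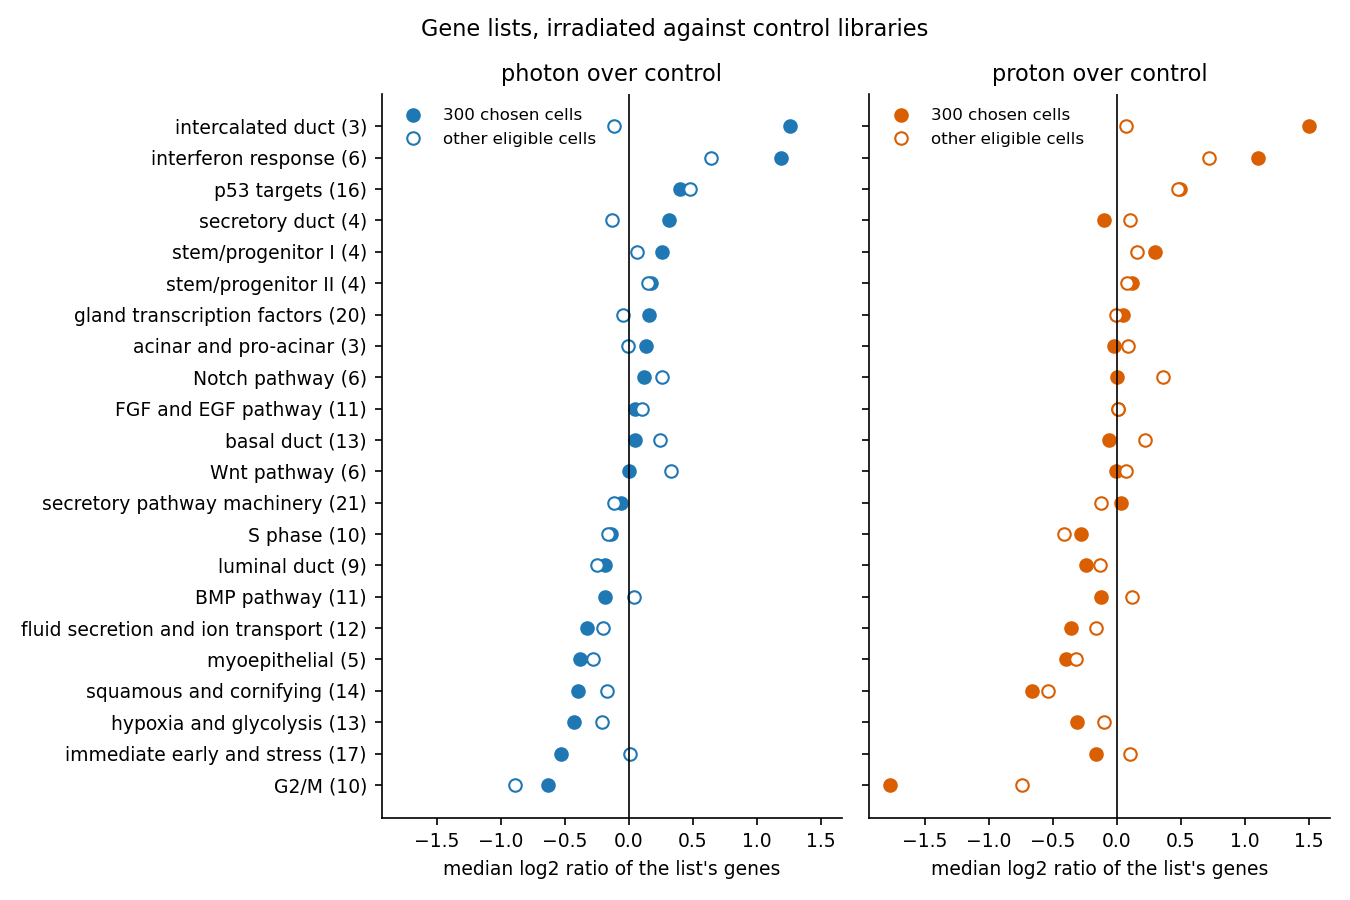
Median log2 ratio of the genes of each list, photon (left) and proton (right) over control, in high-scoring cells (filled) and in the remaining cells (open), with the number of genes in brackets. G2/M genes are at −0.63 and −1.77 in high-scoring cells, and interferon genes at 1.19 and 1.10. The interferon list includes Cxcl10, which reached the UMI minimum only through 1 photon cell.

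The score genes themselves differed between libraries also where no cell was chosen. Over all eligible cells Aqp5 was at 34.9 CPM (30.6 to 39.7) in the control, 8.46 (6.57 to 10.7) in the photon and 7.21 (5.46 to 9.34) in the proton library. Prkg2 was at 59.9 CPM (54.2 to 66.1) in the control, 99.8 (93 to 107) in the photon and 90.4 (83.9 to 97.3) in the proton library. Sostdc1 was at 155, 104 and 88.9 CPM and Mgp at 78.9, 55.6 and 50 CPM. Prss12 was lowest in the control, at 5.09 CPM (3.53 to 7.11) against 11 (8.78 to 13.5) and 12.5 (10.2 to 15.2). The intervals of the control lay apart from those of both irradiated libraries for each of these 5 genes. For Gas1 they overlapped both, and for Layn they overlapped those of the proton library. In the remaining cells alone, control and photon intervals overlapped for Sostdc1 (35.4 to 45.8 and 30.4 to 39.2 CPM). They also overlapped for Mgp (29.3 to 38.9 and 23.6 to 31.5 CPM), and lay apart for Aqp5, Prkg2 and Prss12.

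In other libraries the balance of the score genes differed. In 11-day mSGOs Mgp was at 1033 CPM (1022 to 1044) over 9282 eligible cells and found in 58% of them after thinning, while Sostdc1 was at 131 CPM and Aqp5 at 12.1 CPM. In fresh tissue, with 128 eligible cells, Aqp5 was at 121 CPM (97.5 to 149), Sostdc1 at 9.31 (3.74 to 19.2) on 7 UMIs, and Prkg2 and Prss12 had 0 UMIs, which allows up to 4.91 CPM each. Summed over these cells, Aqp5 thus had the most UMIs of the score genes, and co-detection in single tissue cells was not examined.

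The score was then applied to the 11-day library, which the rule had not used. The same share of eligible cells was taken, 865 of 9282 (9.32%). Mgp made up 86.1% of their score UMIs and Sostdc1 9.42%, so that the choice there was mainly one of Mgp. Left out of the score, Sostdc1 was higher in the chosen cells by a log2 ratio of 1.07 (0.96 to 1.19), Aqp5 by 0.74 (0.37 to 1.18) and Prss12 by 0.35 (−0.11 to 0.85). Of 134 genes that were 2-fold higher at day 7 and could be compared, 2 were 2-fold higher (1.49%, against 0.134% of all 8217 genes) and 112 were above 0 by any amount, where 45% of all genes were. Of 135 genes lower at day 7, 42 were 2-fold lower (31.1%, against 0.84% of all genes). Krt13 was at 16.7 against 97.7 CPM, and Sprr2f had 1 UMI in the chosen cells and 1813 in the others, held by 0.748% of those cells. Sprr1a, far below at day 7, was at 2370 against 2471 CPM (−0.06), and Mxd1 was at −0.11 (−0.83 to 0.51). The squamous list had a median of −0.73, with 7 of 15 genes 2-fold lower, the basal duct list 0.01, S phase 0.47 and G2/M 0.47, with 1 of 14 genes past 2-fold. Sprr2a3 (0.67) and Krtdap (0.52), also squamous genes, were higher in the chosen cells.

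With Mgp left out of the score, an alternative chosen after seeing the data, 865 cells were taken of which 256 had been chosen with Mgp. Then 24 of the 134 higher genes were 2-fold higher (17.9%, against 1.47% of all genes) and 51 of the 135 lower genes 2-fold lower (37.8%, against 1.46%). Timp3 was at 105 CPM against 37.3, Mcm4 at 54.4 against 24.9 and Ctnnal1 at 75.8 against 34.9 CPM, whereas Kifap3 (0.16, −0.04 to 0.36) and Fermt1 (0.21, 0.05 to 0.37) differed little. S phase genes had a median of 0.81 and G2/M genes, at 2.30, were all 14 past 2-fold. The basal duct list was at 0.22 and the squamous list at −0.20, with 5 of its 15 genes past 2-fold lower and 1 past 2-fold higher.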

How the data were processed

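Cells of 7-day mSGOs, 11-day mSGOs and gland tissue were sorted as propidium iodide negative and profiled by droplet 3′ single-cell RNA-seq. For each of the 5 libraries the authors deposited whole-number UMI counts per gene and barcode. The submitters' processing notes name Cell Ranger 5 and mm10, the file headers version 3.0.1 (day 7, tissue) and 7.0.0 (11 days), and the study's methods GRCm39. The gene lists held 31053 and 32285 genes, 30406 of them in both.

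The members and lists were chosen with earlier results of these data known. Counts were summed over cells and scaled to CPM, and log2 ratios used a pseudocount of 1 CPM. The genes compared had at least 100 UMIs in eligible day 7 cells, or at least 50 in high-scoring cells for irradiation. Intervals (exact Poisson for CPM, conditional binomial for ratios without pseudocount, Clopper-Pearson for shares) cover only the error of counting. No test was made, each group being a single library. Named genes were the 7 score genes, the 15 highest and 15 lowest ratios nearest 0 over 3 libraries with at least 50 CPM, up to 4 genes per list with the largest mean ratio, and the 5 highest and 5 lowest after irradiation. Others were chosen after their values were seen. There were 30 gene lists, and the score genes were left out of them. Doublets were called with Scrublet (scanpy 1.11.5) and kept in the main values. Clusters used 2000 variable genes, 30 principal components, 15 neighbours and leidenalg 0.10.2 at resolution 0.8. The ratio functions were tested on simulated data. Python 3.11.15, numpy 2.4.6 and scipy 1.17.1 were used.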

Additional observations from a re-analysis of the deposited data

Results flagged for a closer look

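Fst was flagged because its irradiated to control ratio went opposite ways in high-scoring and remaining cells under both kinds of irradiation. It was 2.68 for photons and 2.61 for protons in high-scoring cells and −1.24 and −0.29 in the remaining cells, a gap of 3.92 and 2.90, resting on 6 control UMIs in high-scoring cells and, in the remaining cells, on 351 control UMIs of which 1 cell held 103 and 355 proton UMIs of which 1 cell held 126. The BMP list, which contains Fst, had medians of −0.19 and −0.12 in high-scoring and 0.04 and 0.12 in the remaining cells, a gap of −0.23 and −0.24. The immediate early and stress list had −0.53 and −0.16 against 0.01 and 0.10, a gap of −0.54 and −0.26. The gland transcription factors had 0.16 and 0.05 against −0.05 and −0.01, a gap of 0.21 and 0.06. With 1 library per group, the difference was not tested in any of these cases, and both ratios of a pair share the control library.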

How the results depend on the processing

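No paired analysis was possible because each group was 1 library. List medians changed sign in 17 cases. The 15 highest and 15 lowest genes did so in 0 of 480 recomputed values, but they were chosen for ratios far from 0. With 150 cells the shares were 6.4, 4.17 and 3.84%, left-out Prss12 1.96 and Mgp 1.79, irradiation calls 99 higher and 41 lower, and medians 0.30 (acinar), −0.06 (FGF and EGF), 0.28 (S phase, photon) and 0.52 (Notch, proton). With 600 cells they were 20.9, 19.5 and 16%, left-out Aqp5 1.59, 26 genes higher after irradiation, and medians 0.52 (acinar), −1.83 (squamous), −0.05 (FGF and EGF), −0.05 (nuclear retained transcripts) and 0.31 (Notch, proton). A minimum of 3000 UMIs moved the photon share to 11.5%. Thinning gave left-out Sostdc1 1.61 and Prss12 1.92, 16 genes lower after irradiation, and medians 0.53 (acinar), 1.00 (S phase) and 0.25 (Notch, proton). At 2% Malat1, 72 genes were higher after irradiation, with FGF and EGF and nuclear retained medians of −0.05. Without Aqp5 in the score the acinar median was 0.46 and Notch (proton) 0.08, and 3 of the 10 genes lower after irradiation were called again, against 4 to 6 with other cell numbers, UMI or Malat1 minimums or thinning. A pseudocount of 10 CPM left 32 genes higher and 73 lower, 20 and 2 after irradiation, and medians 0.30 (acinar), −1.86 (squamous) and 0.78 (S phase).

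Without a UMI minimum 753 genes were higher and 775 lower after irradiation, and medians were −0.03 (acinar), −1.81 (squamous), −0.12 (endothelial), 0.00 (hedgehog) and −0.33 (Notch, photon). Averaging cell shares gave 19 genes lower after irradiation and −1.64 for the squamous list. Relative to the median of all genes, 45 genes were higher, and medians were 0.14 (acinar), 0.41 (basal duct), −2.29 (squamous), 1.07 (S phase), −0.11 (fluid secretion), −0.08 (Wnt), −0.14 (FGF and EGF) and −0.17 (nuclear retained). Leaving out 1 library left 238 to 285 genes higher (262 without the control, 285 without photon, 238 without proton), since fewer libraries had to pass, and nuclear retained medians of −0.05 to 0.29. The low-squamous comparison gave 46 genes higher and 48 lower, with medians 0.04 (secretory duct), −0.06 (squamous), 0.86 (S phase), −0.03 (stromal) and −0.10 (nuclear retained). At 11 days the day 7 score threshold gave 5 and the score without Mgp 24 higher genes. The cluster with most high-scoring cells held 83.3% of them (38.5% of eligible cells) at resolution 0.4, 41.3% (10.9%) at 1.2 and 60.3% (14.3%) with 10 components. Except where named, the cause was not tested. Genes with few UMIs, such as the 6 of Aqp5 in proton cells chosen without it, have wide counting intervals.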
